A study of Mus musculus with 2 samples.

Results

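The genes described here are 37 genes of the unfolded protein response and of the response to amino acid shortage. The data come from STARR-seq, in which genomic fragments sit inside a plasmid transcription unit so that each fragment's RNA reports its own effect on that unit. The fragments were tested in primary T-helper 2 cells from C57BL/6NJ mice, after transient transfection of the plasmids. The cells of both libraries were activated over 3 days with antibodies to CD3e (0.25 ug/mL) and CD28 (1 ug/mL). They were also given an antibody to interferon-gamma (2 ug/mL, 4 days), interleukin-2 (4 days) and interleukin-4. There was 1 group of 2 libraries, labelled as biological replicates but with the same donor record, and no sample treated with a stress agent. Sex, age and the number of animals are not given in the labels used here.

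An element is a row of the authors' deposited table, which was made from both libraries together. Each element carries a signed log2 fold, read here as RNA output over input, and a q-value below 0.01. "Positive" and "negative" name the sign of that fold and nothing more. No value per library, no error of a fold and no read depth could be given. An element was assigned to a gene when its midpoint lay within 10 kb of any GENCODE M21 start of that gene. This gave 27 of the 18431 elements and covered 20 of the 37 genes. The table holds fragments in plasmids and not the RNA of the genes, so neither the identity of the cells nor the expression of any gene could be checked against markers.

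The unfolded protein response is set off when unfolded proteins build up in the endoplasmic reticulum (ER). Its sensors are IRE1 (gene Ern1), PERK (Eif2ak3) and ATF6, and they act through the transcription factors XBP1, ATF4 and ATF6. ATF4 is also made when amino acids run short, through another kinase, and then induces genes for amino acid synthesis, uptake and tRNA charging. Cells that secrete much protein, such as cytokine-producing helper T cells, depend on these pathways. The factors have well-known DNA sites. ATF6 acts with NF-Y at the ER stress response element (ERSE), which is CCAAT, any 9 bases, then CCACG. The related ERSE-II is ATTGG, any base, then CCACG. ATF4 with a C/EBP partner binds a composite with the core TGATGNAA, XBP1 and ATF6 bind the unfolded protein response element (UPRE, TGACGTGG), and CREB and ATF factors bind the cyclic AMP response element (CRE), the palindrome TGACGTCA. All 5 were searched on both strands. CRE and UPRE both contain TGACG, and each ERSE contains CCAAT.

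The sites that stood in the members' elements are shown first, so that each can be read beside the fold of its element. The labels give a size range of 200 to 400, while these elements were 150 to 1625 bp wide. Whether a site lay on the fragments behind the fold of its element cannot be told. Each is read from GRCm38 on the strand of its gene, 5′ to 3′, with the site in capitals. The ERSE sites were found in the elements at Syvn1, Hspa5, Xbp1 and Pdia6, and the single ERSE-II at Herpud1.
Syvn1 (chr19:6046512-6046571, plus strand): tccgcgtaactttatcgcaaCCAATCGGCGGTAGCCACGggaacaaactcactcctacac
Hspa5 (chr2:34772020-34772049, plus strand): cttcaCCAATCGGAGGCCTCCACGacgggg
Xbp1 (chr11:5520901-5520930, plus strand): accggCCAATCGCGGACGGCCACGacccta
Pdia6 (chr12:17266471-17266530, plus strand): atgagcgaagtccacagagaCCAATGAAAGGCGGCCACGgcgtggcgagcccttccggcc
Herpud1 (chr8:94386353-94386412, plus strand): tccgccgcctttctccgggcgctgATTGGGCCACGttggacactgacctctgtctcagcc

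The C/EBP-ATF composite stood in 5 elements. At Trib3, Herpud1 and Pdia3 it lay on the strand opposite to the gene and is printed as its reverse complement.
Trib3 (chr2:152344028-152344057, minus strand): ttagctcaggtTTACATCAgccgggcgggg
Herpud1 (chr8:94386291-94386350, plus strand): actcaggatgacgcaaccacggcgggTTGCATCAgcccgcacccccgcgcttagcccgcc
Ppp1r15b (chr1:133131080-133131139, plus strand): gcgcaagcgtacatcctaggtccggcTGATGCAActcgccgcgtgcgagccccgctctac
Sars (chr3:108444175-108444234, minus strand): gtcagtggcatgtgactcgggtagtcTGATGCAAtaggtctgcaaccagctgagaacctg
Pdia3 (chr2:121424079-121424138, plus strand): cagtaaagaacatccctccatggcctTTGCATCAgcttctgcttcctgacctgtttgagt

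A full CRE palindrome stood in 1 of the 27 elements, at the promoter of Ppp1r15a, and the UPRE in 0, beside 509 and 258 of the 18414 elements on assembled chromosomes.
Ppp1r15a (chr7:45526262-45526291, minus strand): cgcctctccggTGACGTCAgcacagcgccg

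Positive elements lay near 15 of the 37 genes and negative elements near 5, and no gene had both. The deposited elements, of either direction, were 16.1% of 114722 tested regions. That number of regions was inferred from the relation of q to p, which gave it for 81.8% of elements. Over all 21911 protein-coding genes, 40.4% had an element within the same distance, 24.5% a positive one and 22.1% a negative one. For the 37 genes these shares were 54.1% (exact 95% binomial interval 36.9 to 70.5), 40.5% (24.8 to 57.9) and 13.5% (4.54 to 28.8). The members were chosen with earlier results of these data known, so these intervals are no test against the shares of all coding genes. Intervals here cover counting error over genes or elements alone. Those over elements take the elements of a gene as independent, which neighbouring elements are not. Of the 27 elements 22 were positive, or 81.5% (61.9 to 93.7), beside 71.5% of all deposited elements. With only the element of lowest q-value kept for each of the 20 genes, 75% were positive. Their median log2 fold was 0.93, with a range from -1.83 to 2.78, and the median over the table was 0.94.

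**Figure D1:**
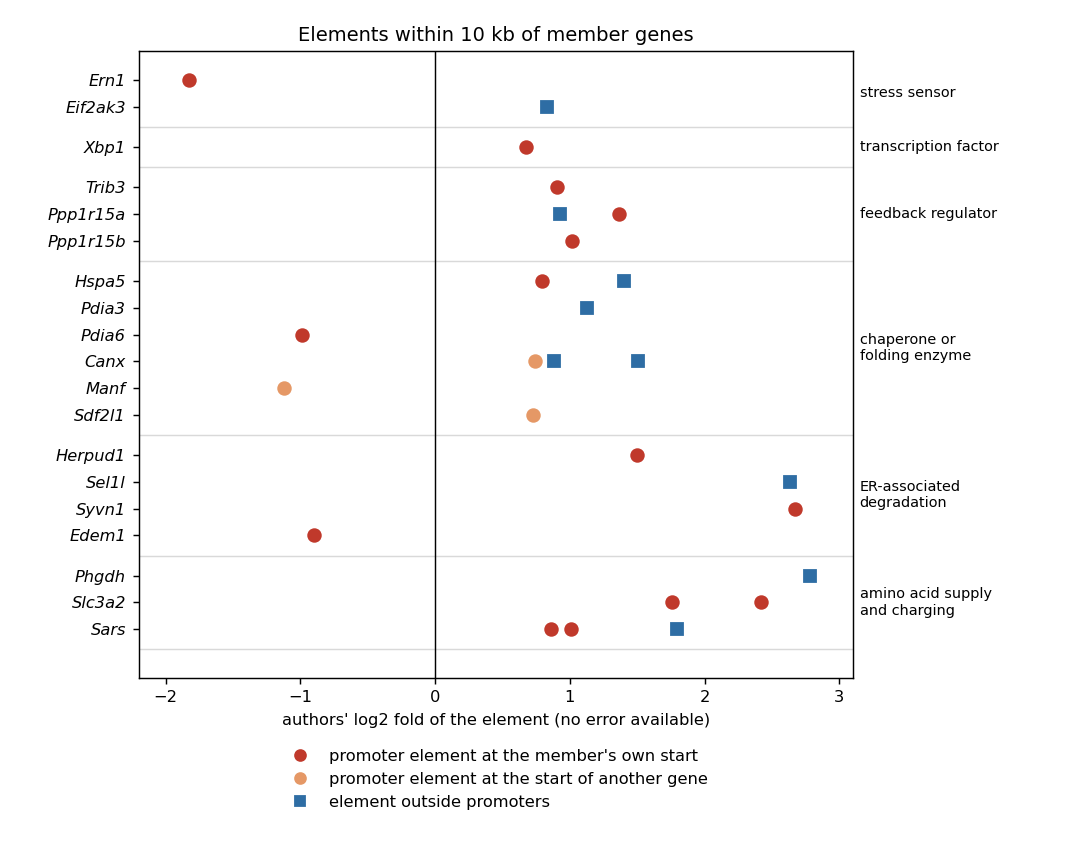
Authors' log2 fold (x axis) of the elements within 10 kb of the members, grouped by role, with 1 negative element not drawn. Red circles are promoter elements at the gene's own start, orange circles promoter elements at another gene's start, and blue squares elements outside promoters. The 9 squares are all positive, and the negative points are all promoter elements.

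Most of the members' elements lay at promoters. With promoters taken as the 1000 bp on either side of any protein-coding start, 18 of the 27 elements lay there (66.7%, interval 46.0 to 83.5), against 30.7% of all elements. The rule selects for this, since it draws a window around gene starts. At these promoters 13 elements were positive and 5 negative. Over all 5657 promoter elements the split ran the other way, with 31.6% positive and 68.4% negative. Counting only the 14 promoter elements that lay at the members' own starts, 11 were positive, or 78.6% (interval 49.2 to 95.3), and 3 were negative. The interval takes these elements as independent, but they lay at 12 genes. Slc3a2 and Sars gave 2 neighbouring positive elements each. Counted by gene over starts of any of its transcripts, 14 of the 37 genes had an element within 1000 bp, 11 a positive one and 3 a negative one. These are 37.8%, 29.7% and 8.11% of the genes, beside 26.4%, 9.86% and 17.5% of all coding genes. The remaining 4 promoter elements lay at the start of a neighbouring gene, where 2 were positive and 2 negative. All 9 elements outside promoters were positive, beside 89.2% of such elements in the table.

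The stress sensors were represented by 1 negative and 1 positive element. The element at Ern1, which encodes the IRE1 kinase and RNase that splices Xbp1 mRNA, had its midpoint 2 bp from a gene start (chromosome 11, 106487401 to 106488275). Its log2 fold of -1.83 (q = 5.75e-07) was the most negative among the members, and 78.9% of all negative promoter elements had a smaller absolute fold. Its GC content was 68.7%, and it held 5 GC boxes (GGGCGG) and none of the 5 stress sites. Eif2ak3, the gene of the PERK kinase that phosphorylates eIF2α, had an intronic element at 0.83 (q = 0.00115), 6185.5 bp from the nearest of its annotated starts and 27822.5 bp from the nearest coding start. That element carried 4 AP-1 sites (TGANTCA), the sites of FOS and JUN dimers. Atf6 had no element.

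Among the transcription factors only Xbp1 had an element. XBP1 is the factor made from the mRNA that IRE1 splices, and it drives ER chaperone and degradation genes. Its promoter element was the widest of the 27 at 1625 bp (chromosome 11, 5520626 to 5522250) and had the smallest positive fold among them, 0.68 (q = 0.00500). The ERSE printed above lay 90 bp upstream of the nearest annotated start, which is an alternative one, and 523 bp from the centre of the element. It was 256 bp downstream of the outermost start, within a 5′ UTR of another transcript. Atf4, Atf5 and Ddit3 (CHOP, the pro-death factor induced by ATF4) had no element within 10 kb.

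The feedback regulators had 4 elements, all positive. Ppp1r15a (GADD34) and Ppp1r15b (CReP) are the subunits that direct protein phosphatase 1 to eIF2α and so reverse the PERK signal. The Ppp1r15a promoter element (chromosome 7, 45525976 to 45526600) had a log2 fold of 1.37, or 2.58-fold (q = 6.40e-06), larger than that of 70.5% of positive promoter elements. Its CRE was centred 8.5 bp upstream of a Ppp1r15a start and 11.5 bp from the centre of the element, and the element held TGACG in 4 places in all. This element also lay 42 bp from the start of the neighbouring gene Plekha4, and which of the promoters its fold reflects cannot be told apart. A further element lay beyond the 3′ end of Ppp1r15a, in coding sequence of the neighbouring gene Tulp2 and 1781 bp downstream of an alternative Ppp1r15a start. It had a log2 fold of 0.93 (q = 7.12e-05). The Ppp1r15b promoter element stood at 1.02 (q = 0.00135), with its C/EBP-ATF composite centred 33.5 bp upstream of the start. The midpoint of this element also lay in an exon of the gene Gm26616. Trib3, a pseudokinase induced by ATF4 that restrains ATF4 signalling, had a promoter element at 0.91 (q = 0.00456), in which the composite was centred 10.5 bp upstream of the nearest annotated start. Chac1 and Dnajc3 (p58IPK, a co-chaperone that also restrains PERK) had none.

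**Figure D2:**
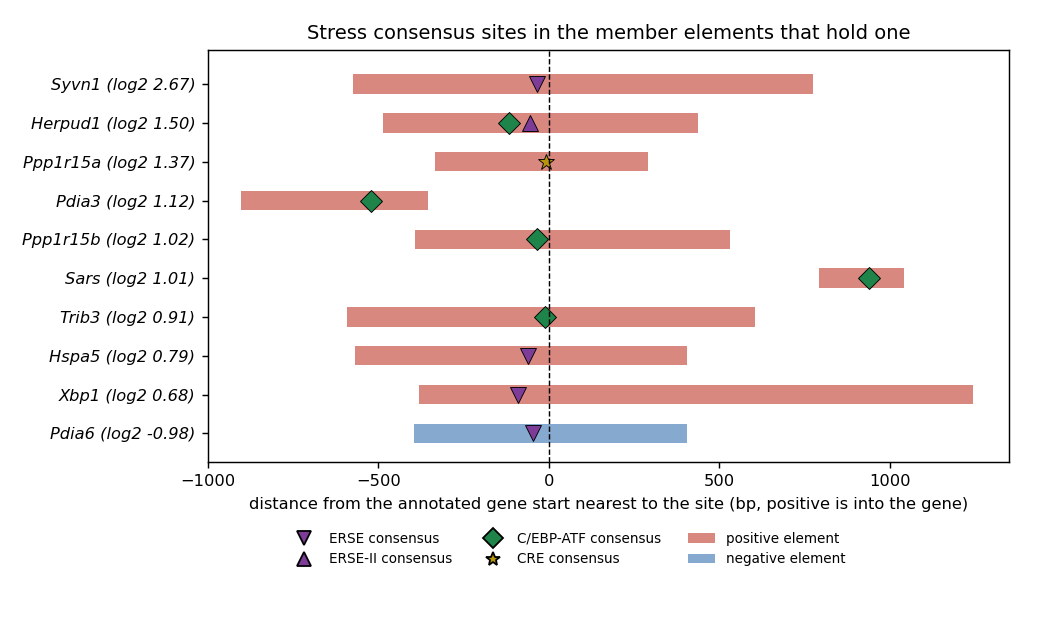
Extent of the 10 member elements that hold a stress consensus site, as distance in bp from the gene start nearest to the site, with the sites as markers. Red bars are positive and blue bars negative elements. Apart from the sites at Pdia3 and Sars, each site lies upstream of its nearest annotated start by 8.5 to 117.5 bp, which for Xbp1 and Hspa5 is an alternative start.

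The chaperones and folding enzymes had 7 positive and 3 negative elements at 7 of 12 genes. Hspa5 encodes BiP, the main ER chaperone and the classic target of ATF6. Its promoter element (chromosome 2, 34771526 to 34772500) had a log2 fold of 0.79 with the highest q-value of the 27 (0.00802), and its ERSE lay 61 bp upstream of the nearest annotated start but 64 bp downstream of the outermost one, also within an annotated UTR. A second Hspa5 element, intergenic and 8732 bp upstream, had a log2 fold of 1.40 (q = 1.34e-06) and held none of the stress sites. Pdia6, a protein disulfide isomerase, went the other way. Its promoter element (chromosome 12, 17266151 to 17266950) had a log2 fold of -0.98 (q = 0.00197), and its ERSE lay 45 bp upstream of the start. The GC content of the Hspa5 and Pdia6 elements was nearly equal, 64.1% and 64.6%.

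The other elements in this class lay away from the genes' own promoters. Pdia3, another disulfide isomerase, had an intronic element at 1.12 (q = 2.76e-05) that was 73.8% repeat-masked and lay 629.5 bp from the start of a non-coding transcript of the gene. Canx (calnexin, a lectin chaperone) had intronic elements at 1.51 (q = 1.01e-07) and 0.88, the latter 53.1% repeat-masked. No member element had another copy in the genome at 95% identity over 90% of its length. Canx was also within 10 kb of the promoter element of Maml1 (0.74), and Sdf2l1, a BiP cofactor, of the one at 2610318N02Rik (0.73). Manf, a secreted ER stress protein, was near the promoter element of Rbm15b (-1.12). Hsp90b1 (GRP94), Pdia4, Dnajb9, Dnajb11 and Creld2 had no element.

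Genes of ER-associated degradation, which sends misfolded proteins out of the ER to the proteasome, had an element at each of the 4 members. Syvn1 (the ubiquitin ligase HRD1) had the highest fold among the members' promoter elements, at 2.67 or 6.37-fold (q = 3.58e-09; chromosome 19, 6046001 to 6047350). Among all positive promoter elements 92.2% had a smaller fold. Its ERSE lay 35 bp upstream of the start, and the element also held an ISRE (the site of interferon regulatory factors), a STAT site (TTCNNNGAA), an ETS site (CCGGAAGT), a GC box and TGACG. Herpud1, which helps assemble the HRD1 complex, had a promoter element at 1.50 or 2.82-fold (q = 0.00470; chromosome 8, 94385951 to 94386875). This was the only member element to carry 2 kinds of stress site, with the ERSE-II 56 bp and the C/EBP-ATF composite 117.5 bp upstream of the start. The midpoint of this element also lay within the annotated gene Gm15890. Sel1l, the HRD1 adaptor, had a 150 bp intronic element at 2.63 or 6.20-fold (q = 2.63e-07), 934.5 bp from the start of a non-coding transcript of the gene and 26589.5 bp from the nearest coding start. Edem1, a mannosidase-like protein that marks glycoproteins for disposal, had a negative promoter element at -0.90 (q = 0.000795), with a GC content of 70.8%, 8 GC boxes and no stress site.

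The Sel1l element held none of the 5 stress sites but had TGACG 8.5 bp from its centre. It is shown here in capitals as the only part of the CRE in this element, which was picked for its high fold. TGACG is a common match, found in 3 of the 9 member elements outside promoters and in 28.8% of all positive elements there. The central 200 bp held it in 18.8% of the latter.
Sel1l (chr12:91813015-91813054, minus strand): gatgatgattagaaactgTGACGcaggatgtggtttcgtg

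The amino acid genes had 6 elements, all positive, at 3 of 9 genes. Phgdh, the enzyme of the entry step of serine synthesis, had the highest fold of all 27, at 2.78 or 6.87-fold (q = 2.04e-09). This element was intergenic and 8248 bp upstream of Phgdh (chromosome 3, 98347976 to 98348500), and it held overlapping interferon-stimulated response elements (ISRE) and no stress site. Slc3a2 (CD98 heavy chain, the partner of the amino acid carriers LAT1 and xCT) had promoter elements at 2.42 (q = 3.99e-08) and 1.76 (q = 5.54e-08). Both lay at alternative starts inside the gene and not at its outermost start. The midpoint of the element of higher fold was in annotated coding sequence of Slc3a2. That element held an AP-1 site that is part of an antioxidant response element, the site of NRF2, and no stress site. Sars, the seryl-tRNA synthetase, had promoter elements at 0.86 (q = 0.00362) and 1.01 (q = 0.000155), and an element in an exon 9380 bp into the gene at 1.79 (q = 5.87e-05). The Sars promoter elements are neighbours in the table, as are those of Slc3a2, so they are not independent observations. The C/EBP-ATF composite of Sars lay 938.5 bp downstream of the nearest start and 21 bp from the centre of its 250 bp element. Asns, Psat1, Shmt2, Slc7a11 (xCT), Slc7a5 (LAT1) and Wars had none.

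Some sites of other factors in elements of high fold, chosen after the values were seen, are shown in capitals for Phgdh (both ISRE matches taken in turn), Syvn1 (the ISRE, then the STAT site) and Slc3a2 (the antioxidant response element). An ISRE stood in 1 of the 9 member elements outside promoters, beside 15.5% of all positive ones there. Of the 13 positive promoter elements 3 held an ISRE (15.8% in all), 2 a STAT site (21.4%) and 2 an antioxidant response element (8.28%). The ISRE of Syvn1 lay 569 bp from the centre of its element, and the antioxidant response element of Slc3a2 337 bp.
Phgdh (chr3:98348222-98348261, minus strand): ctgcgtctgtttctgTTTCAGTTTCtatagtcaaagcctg
Phgdh (chr3:98348228-98348267, minus strand): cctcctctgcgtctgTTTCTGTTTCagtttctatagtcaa
Syvn1 (chr19:6046087-6046126, plus strand): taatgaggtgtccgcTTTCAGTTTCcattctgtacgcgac
Syvn1 (chr19:6046624-6046653, plus strand): cgctatttttTTCCGAGAAgcacttaactt
Slc3a2 (chr19:8713094-8713133, minus strand): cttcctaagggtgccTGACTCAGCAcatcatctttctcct

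Base composition accompanied the sign of the promoter elements, as it does across the table. GC content had a median of 58.2% in the 13 positive elements (47.4 to 65.5) and 68.7% in the 5 negative ones (64.2 to 74.5). Within bands of GC content the members were compared with all promoter elements of the band. Below 60% all 8 member elements were positive, in bands where 66.8% to 90.4% of all promoter elements are. From 60% to under 65%, 4 of 6 were positive, beside 37.8% (interval 35.0 to 40.5) of 1237 elements. At 65% or more 1 of 4 was positive, beside 6.46% of 2943, and that element was Herpud1. The part of base composition in the members' positive share was not tested further than these bands.

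**Figure D3:**
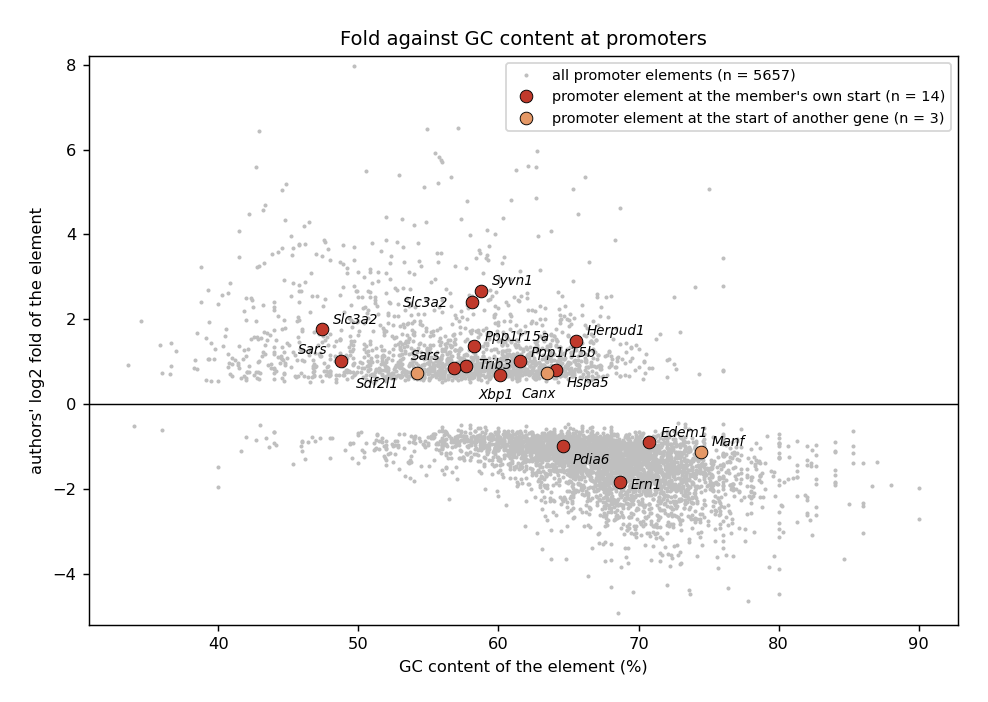
Authors' log2 fold (y axis) against GC content (x axis) of all 5657 promoter elements (grey) and of the member elements (coloured), with 1 negative member element not marked. The negative member elements marked lie at a GC content of 64.6% or more, and Herpud1 is the positive member element of highest GC content, at 65.5%.

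**Figure D4:**
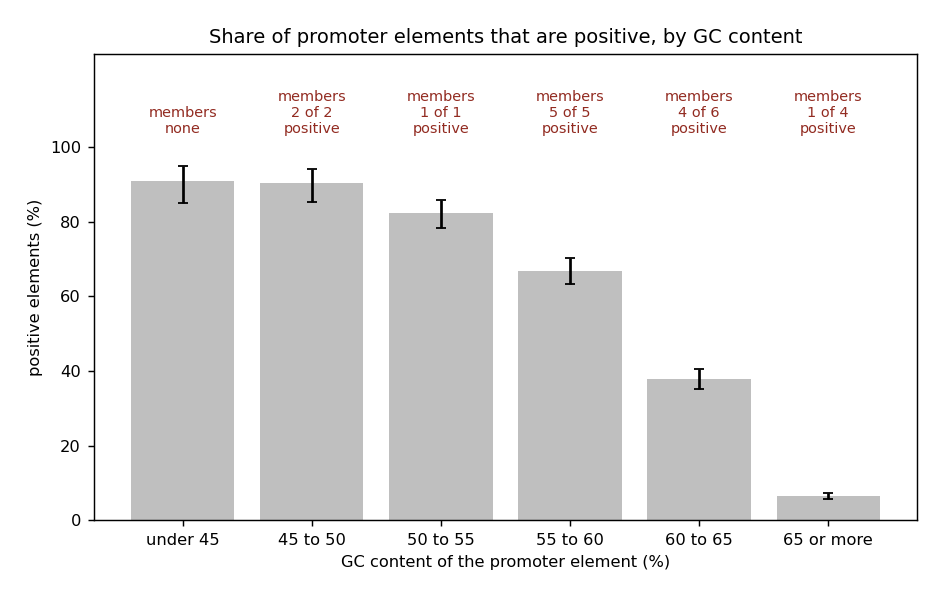
Share of all promoter elements that are positive in bands of GC content, with exact 95% binomial intervals as error bars, and the count of positive member elements above each bar. The share falls from 90.8% in the band of lowest GC content to 6.46% in the highest.

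Of the 5 stress sites the ERSE was the rarest in the promoter elements of the table, and the CRE and UPRE were about as frequent in the members' promoter elements as in all. An ERSE stood in 12 of the elements on assembled chromosomes, and 4 of these 12 were members. Among promoter elements the numbers were 4 of 18 for the members and 9 of 5657 (0.159%) in all, of which 6 were positive. The C/EBP-ATF composite stood in 4 of 18 and in 4.45% of all promoter elements, and 51.6% of the latter were positive. For the CRE the numbers were 1 of 18 and 4.42%, with 57.6% positive, and for the UPRE 0 of 18 and 2.03%. Any of the 5 sites was found in 9 of the members' 18 promoter elements, and 8 of these 9 were positive. Among all promoter elements, 607 (10.7%) held any of them, of which 51.2% were positive. All 9 lay at the member's own start. The 5 own-start promoter elements without a stress site were split into 3 positive (both of Slc3a2 and the wider of Sars) and 2 negative (Ern1 and Edem1). GC content differed as well. It was 68.7% at Ern1 and 70.8% at Edem1, and 48.8% (Sars) to 65.5% (Herpud1) in the 8 positive elements with a site. The negative element with a site, that of Pdia6, stood at 64.6%. The part of GC content in the sign of these elements was not tested. The ERSE was defined in promoters of ER chaperones such as Hspa5, and the members include other known targets of ATF6, XBP1 and ATF4. The frequency of any of the stress sites among these genes is therefore not independent evidence. Widths differ as well, with a median of 925 bp in the positive member promoter elements and 725 bp in all positive ones, and a wider element holds more matches.

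Away from promoters the members' elements held stress sites about as often as the table did. Of the 9 elements there, 1 held one, that of Pdia3, beside 11.6% of all 12757 elements outside promoters. AP-1 sites stood in 2 of the 9, at Eif2ak3 and Hspa5, beside 46.4% of all positive elements outside promoters. STAT sites stood in 3 of the 9, beside 23.8%. In the 13 positive promoter elements AP-1 sites were in 5 (22.0% in all positive promoter elements), CCAAT in 8 (57.5%) and TGACG in 11 (56.3%). GC boxes were in all 5 negative elements and 10 of the 13 positive ones, beside 88.6% and 62.7% of all promoter elements of that sign.

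The promoters of all members were also read without regard to the table, in windows of 300 bases (250 before and 50 after the gene start) from RefSeq on GRCm38.p6. The symbols of 32 of the 37 genes matched. Atf6, Manf, Ppp1r15b, Slc7a5 and Wars did not. An ERSE stood in 8 of the 32 promoters, against 39 of all 32851 (0.119%). At Hspa5 and Syvn1 the promoter lay in a positive element and at Pdia6 in a negative one. The other 5 promoters, those of Hsp90b1, Calr, Canx, Creld2 and Dnajc3, had no element at the gene's own start. The C/EBP-ATF composite stood in 5 promoters (3.97% of all), of which Trib3 and Herpud1 had a positive element and Asns, Chac1 and Slc7a11 had none. Dnajb11 held an ERSE-II and had no element. As above, the frequency of these sites among the members is not independent evidence. A region may be missing from the table because its q-value was not below 0.01, because it was not tested or through another filter that is not stated. These cases cannot be told apart.

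The sites of these promoters without an element are printed for comparison with those above, on the strand of the gene. The ERSE of Calr and Creld2, and that of Hsp90b1 nearer to its start, read in the opposite orientation, as CGTGG, 9 bases, then ATTGG. The composite of Chac1 and 1 of those of Slc7a11 are reversed too.
Hsp90b1, site farther from the start (chr10:86705632-86705661, minus strand): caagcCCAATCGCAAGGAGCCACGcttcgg
Hsp90b1, site nearer to the start (chr10:86705527-86705556, minus strand): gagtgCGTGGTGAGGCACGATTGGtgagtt
Calr (chr8:84847069-84847098, minus strand): caacgCGTGGTCGACCCTCATTGGcccata
Canx (chr11:50325794-50325823, minus strand): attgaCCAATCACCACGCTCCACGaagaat
Dnajc3 (chr14:118937822-118937851, plus strand): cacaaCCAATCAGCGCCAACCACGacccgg
Creld2 (chr15:88819515-88819544, plus strand): cttctCGTGGCGAGCCTCAATTGGtccaca
Asns (chr6:7693214-7693243, minus strand): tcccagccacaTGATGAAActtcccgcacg
Chac1 (chr2:119351038-119351067, plus strand): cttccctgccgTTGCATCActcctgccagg
Slc7a11, site farther from the start (chr3:50443661-50443690, minus strand): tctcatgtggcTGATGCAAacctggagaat
Slc7a11, site nearer to the start (chr3:50443642-50443671, minus strand): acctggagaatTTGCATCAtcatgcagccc
Dnajb11 (chr16:22857843-22857872, plus strand): ccggcggcgATTGGCCCACGcctggctgct

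The limit of 10 kb fell between close neighbours. The element just inside it was the exonic one of Sars at 9380 bp. Just outside lay an exonic element of Hsp90b1 at 10033 bp (log2 1.06), intergenic ones of Sel1l at 10347 bp (2.16) and Xbp1 at 11008.5 bp (0.65), and one near Trib3 at 11507 bp (1.06). The next were negative, near Shmt2 at 12394 bp (-0.83) and Ern1 at 13336 bp (-0.95).

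A wider list of 59 other genes of the same pathways, of which 58 matched the annotation, gives the rest of the pathways. Elements lay near 36 of the 58, or 62.1%, beside 40.4% of all coding genes. Positive ones lay near 30 (51.7%, beside 24.5%) and negative ones near 13 (22.4%, beside 22.1%). Of their 29 promoter elements 18 were positive (62.1%, beside 31.6% of all) and 11 negative, and 21 of 23 outside promoters were positive (91.3%, beside 89.2%). The positive elements of lowest q-value were near Vars, the valyl-tRNA synthetase (2.24, at the promoter), Aars, the alanyl-tRNA synthetase (1.63), Ero1l, the ER oxidase (4.40, in an intron), Atf3, a stress-induced factor (2.20), and Eif2ak2, the interferon-induced eIF2α kinase PKR (2.32, at the promoter). The negative ones were at the promoters of Txndc5, a disulfide isomerase (-1.44), Cebpb, a partner of ATF4 (-1.42), and Ube2j1, an ER ubiquitin-conjugating enzyme (-1.53), near Nupr1 (-1.35), and at a neighbour's promoter within 10 kb of Aars (-1.28). Some of these genes had elements of both signs. Txndc5, Cebpb and Nupr1 also had positive elements, of which the highest stood at 2.13, 1.58 and 1.02. Ero1l also had a negative element at its promoter (-0.85).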

How the data were processed

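The authors deposited 1 table of elements for both libraries together, on mm10, per the deposited text lists of files. How reads were aligned and elements called and tested is not stated by any label or header. Each element has a deposited log2 fold (the base and the direction of the ratio are read so, not stated), a p-value and a q-value. Depth is unknown. The relation of q to p gave 114722 tested regions, for 81.8% of elements. Starts count from 1, since the last column equals end minus start plus 1 in all 18431 elements.

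Elements were joined to GENCODE M21 starts by symbol (Ddit3 has more than 1 gene record) and to GRCm38.p6 sequence with samtools 1.23.1 and pysam 0.24.0. Copies were sought with blastn 2.17.0. Site search and assignment were checked on simulated data. Groups came from the labels, with 1 group and no contrast. No test was run, since the members and lists were chosen with earlier results of these data known and no value per library exists. Every member is accounted for, but 1 element that enters the counts is not reported here by itself. Sequences follow a rule that prints up to 60 bases around each stress site, or 30 where the window meets a UTR. Of the wider list the 5 genes per direction with the lowest q-value are named. Alternatives changed the window, the starts used, the q-value, the fold, the promoter width and the site search.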

Additional observations from a re-analysis of the deposited data

How the results depend on the processing

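The share of positive elements stayed between 75% and 86.7% and the median log2 fold between 0.91 and 1.50 under every alternative run for them (10 each). Some counts moved. At a q-value below 0.001, 11 genes had an element, 9 a positive and 2 a negative one, and 4 elements held a stress site. Keeping elements with a log2 fold of 1 or more in size, these were 13 genes, 2 with a negative element, and 6 elements with a stress site. With only the starts of protein-coding transcripts, 16 genes had an element, 11 a positive and 5 a negative one. Using only the start of each gene record gave the same 3 counts. Some of the genes counted above thus rest on other annotated starts. The shares of all coding genes at these q-value, fold and start settings were not computed. Whether the members lost more than other genes therefore cannot be told. A window of 50 kb gave 34 genes with an element (68.2% of all coding genes), 26 with a positive one (55.1%) and 17 with a negative one (39.9%). It also gave 17 elements with a stress site and 43.5% at promoters. Negative elements were near 8 genes at 20 kb (beside 27.3% of coding genes), and near 3 when the nearest coding start had to be a member's. For the latter setting the share of coding genes was not computed either. The central 200 bp held a stress site in 6 elements. Allowing 1 mismatch in the CRE outside its central ACGT gave 3 elements. No library could be left out, since the table joins both. No paired analysis was possible because there is 1 group and no value per library. Depth per element is unknown, so no fold could be weighted by its precision.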

Other observations

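Beyond the members, 5 promoter elements of the table held an ERSE. They included Derl3, a channel protein of ER-associated degradation, with 2 sites and a log2 fold of 0.62 (q = 0.00407), and Hnrnpa3, a splicing factor, at 1.10 (q = 1.58e-05). The third positive one was at Pan2 (0.62), and the 2 negative ones were at Adcy3 (-1.32) and Cyb561 (-1.39). An ERSE-II stood in 10 other promoter elements, of which 4 were positive and 6 negative. A positive one was at Ufd1, a cofactor of the segregase that pulls misfolded proteins out of the ER (0.88, q = 0.000226), and a negative one at Tmed2, a gene of ER cargo transport (-1.43, q = 0.00182). These genes were picked from their site and their known role after the values were seen.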
